A study of Homo sapiens with 4 samples.

Results

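The integrin subunits of keratinocytes were examined in RNA-seq data of HaCaT cells (HaCAT in the sample labels), an established line of human keratinocytes, after knockdown of ALKBH5. The members are 10 genes, taken by gene name from the 58735 genes of the deposited tables. The list of names was chosen with earlier results of these data known. They are the 5 alpha subunits ITGA2, ITGA3, ITGA5, ITGA6 and ITGAV and the 5 beta subunits ITGB1, ITGB4, ITGB5, ITGB6 and ITGB8. All 10 passed the filter on low counts, which left 15075 genes to be tested. One group of wild-type HaCaT cells received negative control siRNA (siControl) and the other received ALKBH5 siRNA (siALKBH5), at 200 pmol in both groups, and each group had 2 libraries. Both groups were thus transfected, and the knockdown was transient and incomplete. The labels do not say which ALKBH5 siRNA was used, or whether the libraries of a group came from separate cultures, so the p-values below measure only the spread between these libraries, which may be technical.

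Integrins are receptors of the cell surface, each made of 1 alpha and 1 beta subunit, that bind the extracellular matrix outside the cell and the cytoskeleton inside it. In the epidermis, ITGA6 with ITGB4 forms the core of the hemidesmosome, which ties basal keratinocytes to laminin and to keratin filaments. ITGB1 pairs with ITGA2 (a collagen receptor), with ITGA3 (a laminin receptor) and with ITGA5 (the classical fibronectin receptor). ITGAV pairs with ITGB5 (a vitronectin receptor) and with ITGB6 or ITGB8, which bind latent TGF-beta. Keratinocytes that migrate into a wound are known for their use of ITGA2, ITGA3, ITGA5 and the ITGAV receptors.

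The 4 libraries held between 16017502 and 18837807 counts on genes. ALKBH5 itself had 1512 and 1576 counts in the control libraries and 956 and 816 after knockdown, so its level in siALKBH5 was 55.5% of that in siControl, and the direction was that of the labels. Of the 6 keratinocyte markers examined, all were detected, and their summed level was between 15356 and 15714 CPM (counts relative to the normalised library total) in siControl and between 20716 and 20755 CPM in siALKBH5. Of the 6, 3 were higher, 2 were lower and 1 (DSG3) was not called. KRT5 and KRT14, the keratins of basal keratinocytes that make up most of the sum, were higher by 0.68 and 0.22 on the log2 scale (adjusted p = 1.4e-27 and 1.0e-14 by edgeR), and so was SFN. KRT17 (-0.08, adjusted p = 0.0022) and TP63 (-0.09, adjusted p = 0.015, both by edgeR) were lower. The call of TP63 depended on the test and the libraries used. It was called in 5 of 6 alternative fits to all 4 libraries, and leaving out any 1 library gave values from -0.11 to -0.07. The part of these shifts in the values below was not tested. Of the markers of other cell types, COL1A2, PDGFRB, KDR and TYR had 0 counts in every library, PECAM1 had at most 1 and PTPRC at most 2. Of 3 fibroblast markers tested, DCN and LUM were lower and COL1A1 was not called, and the summed fibroblast markers were between 21.9 and 22.8 CPM in siControl and between 18.7 and 19.1 CPM in siALKBH5. The endothelial sums were 32.5 CPM in both siControl libraries and at most 35.5 CPM in siALKBH5, although CDH5 was lower (-0.69, adjusted p = 5.0e-05) and VWF higher (0.51, adjusted p = 2.1e-05, both by edgeR). The melanocyte and leukocyte sums were at most 3.89 and 0.389 CPM in any library. Fewer cells with an mRNA and less of that mRNA in each cell cannot be told apart in such bulk samples.

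After ALKBH5 knockdown, 3 of the 10 integrin subunits rose, 3 fell slightly and 4 did not pass the test. The 3 that rose were ITGA5, at 1.63-fold of its control level, ITGA2 at 1.36-fold and ITGB5 at 1.18-fold. The 3 that fell were ITGAV, ITGA6 and ITGB4, which kept between 90.1% and 96.0% of their control levels, and these calls depended on the test and the libraries used. ITGA3, ITGB1, ITGB6 and ITGB8 were not called. A gene was called where edgeR's quasi-likelihood test gave it an adjusted p under 0.05 over all genes. By this rule 19.3% of all genes tested were higher and 17.3% were lower, so 3 of 10 in each direction is read against these shares and is not a result about integrins. When the change also had to reach 1 log2 unit in size, 1.62% of all genes were higher and 1.3% were lower, and 0 of the 10 members were called. The median absolute log2 fold change was 0.09 over the members and 0.20 over all genes tested, and the median signed change was -0.0062 over the members and -0.0081 over all genes. The members had between 99 and 13782 counts per library, and no median was taken over genes of like counts. The part of count level in the gap between the absolute medians was not tested. Both siALKBH5 libraries lay above both siControl libraries for 3 members and below them for 4, against 32.8% and 33.5% of all genes tested.

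**Figure D1:**
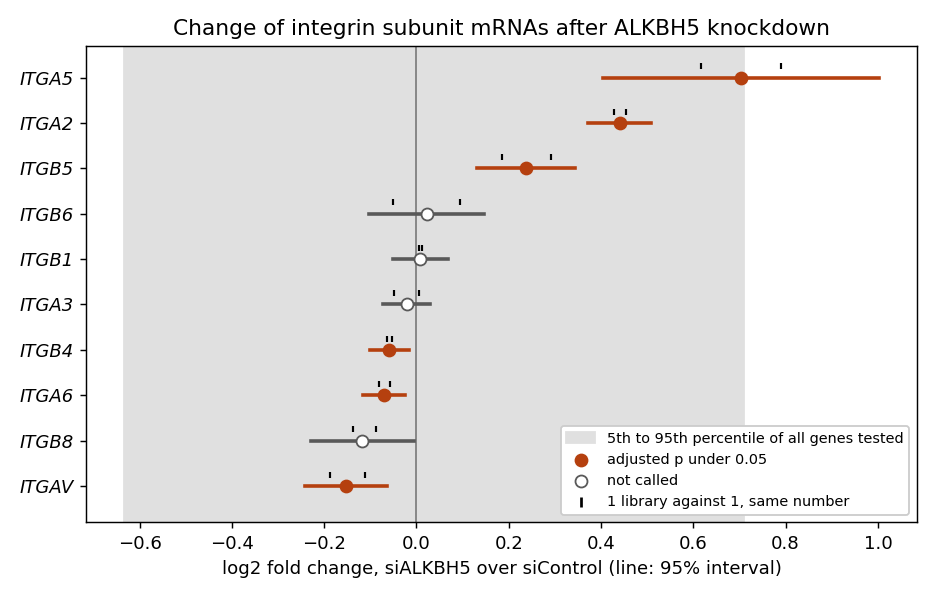
Log2 fold change of each integrin subunit, siALKBH5 over siControl, on the x axis. Filled points have an adjusted p under 0.05, lines are 95% intervals from edgeR, ticks compare 1 library with 1 of the same number, and the grey band spans the 5th to the 95th percentile of all genes tested. ITGA5 (0.70), ITGA2 (0.44) and ITGB5 (0.24) stand to the right of 0, and the other 7 members lie between -0.15 and 0.02.

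The levels of the 10 mRNAs spanned a wide range. Per kilobase of the listed gene length, the highest member, ITGB4, was 137-fold above the lowest, ITGA5, in siControl and 80.6-fold above it in siALKBH5. In siControl, ITGB4 stood at 113 ± 0.952 CPM per kb (SD, n = 2) and ITGA6 at 99.9 ± 1.65 (SD, n = 2). These 2 subunits of the hemidesmosome together made up 58.9% ± 0.297 (SD, n = 2) of the summed level of the 10 members. Next came ITGB1 at 45.9 ± 0.560 CPM per kb (SD, n = 2) and ITGA3 at 44.4 ± 0.349 (SD, n = 2), and then ITGA2 at 19.9 ± 0.0713 (SD, n = 2). ITGAV, with 12.8 ± 0.554 CPM per kb (SD, n = 2), was followed by ITGB6 with 10.4 ± 0.411 (SD, n = 2) and ITGB5 with 10.1 ± 0.0729 (SD, n = 2). The lowest levels were those of ITGB8 at 4.56 ± 0.279 CPM per kb (SD, n = 2) and ITGA5 at 0.827 ± 0.0231 (SD, n = 2). Neighbours in this order were separate in both libraries, except ITGB6 and ITGB5, whose ranges overlapped.

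The order in siALKBH5 was the same for the first 5 members and for ITGB8 and ITGA5 at its end. ITGB5 moved up to 11.9 ± 0.712 CPM per kb (SD, n = 2), where its range overlapped that of ITGAV at 11.5 ± 0.0735 (SD, n = 2), and both lay above ITGB6 at 10.6 ± 0.336 (SD, n = 2). The sum over the 10 members was between 360 and 364 CPM per kb in all 4 libraries. The gene length is that of the whole gene model, so a gene that uses short isoforms is understated on this scale.

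**Figure D2:**
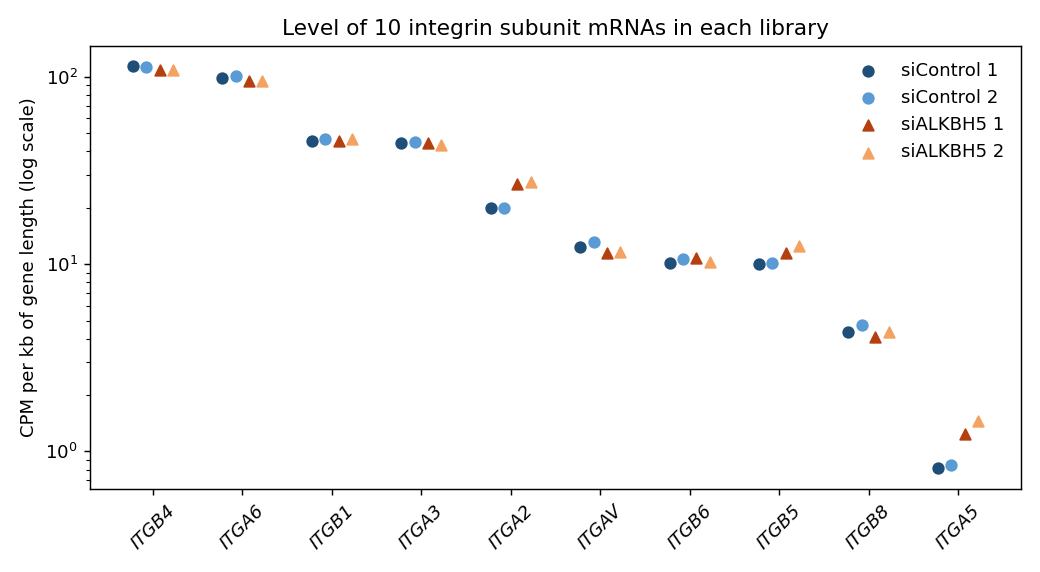
Level of each integrin subunit in each library, in CPM per kb of gene length on a log axis, ordered by the siControl mean. Circles are siControl and triangles are siALKBH5 libraries, and ITGA2, ITGB5 and ITGA5 are the members whose triangles lie above both circles.

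ITGA2 had the change with the smallest adjusted p among the members. It encodes the alpha subunit of a collagen receptor that keratinocytes use on the exposed dermis of a wound. It (ENSG00000164171) lies on chromosome 5 of GRCh38 from 52989326 to 53094779, and its longest coding transcript has 30 exons. ITGA2 had 2534 and 2844 counts in the control libraries and 3951 and 3564 after knockdown. On the CPM scale these were 157 and 158 in siControl and 212 and 217 in siALKBH5, so the groups did not overlap and the libraries of a group lay close together. The level rose from 158 ± 0.564 CPM to 214 ± 3.56 CPM (SD, n = 2 each). This was a log2 fold change of 0.44 (adjusted p = 9.0e-13 by edgeR, standard error 0.03). Leaving out any 1 library gave values from 0.43 to 0.46, all called.

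ITGA5 had the largest log2 fold change among the members and the lowest level. It encodes the alpha subunit of the fibronectin receptor, which is scarce in resting epidermis and appears on keratinocytes in culture and in wounds. It (ENSG00000161638) lies on the minus strand of chromosome 12 from 54395261 to 54419460, and its longest coding transcript also has 30 exons. ITGA5 had 99 and 115 counts in the control libraries and 176 and 182 after knockdown. The corresponding levels were 6.14 and 6.39 CPM in siControl and 9.42 and 11.1 CPM in siALKBH5, which did not overlap. Its log2 fold change of 0.70 had an adjusted p of 0.00026 by edgeR, with a standard error of 0.15 and a 95% interval from 0.40 to 1.00. Leaving out any 1 library gave values from 0.59 to 0.82, all called. Its counts were the lowest of the 10 members, and the interval was the widest.

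ITGB5, which pairs with ITGAV alone and binds vitronectin, rose least of the 3. It (ENSG00000082781) lies on the minus strand of chromosome 3 from 124761948 to 124901418. ITGB5 had 1046 and 1180 counts in the control libraries and 1378 and 1321 after knockdown. These were 64.9 and 65.6 CPM in siControl against 73.8 and 80.3 CPM in siALKBH5, so both siALKBH5 libraries were higher, with a wider spread between them. Its log2 fold change of 0.24 (adjusted p = 0.00045 by edgeR, standard error 0.05) ranged from 0.18 to 0.30 with each library left out, with a call each time.

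The sequences upstream of ITGA2, ITGA5 and ITGB5 are shown because these are the members that rose. They are the 250 bases before the RefSeq start on GRCh38.p14, read 5′ to 3′ on the strand of the gene, with the letters GGGCGG (an SP1 motif), TGANTCA (AP-1), TATAAA (the TATA box), GGAATG (TEAD) and CCAAT searched on both strands and put in capitals where found. ITGA2 lies on the plus strand at chr5:52989102-52989351, ITGA5 on the minus strand at chr12:54419267-54419516, and ITGB5 on the minus strand at chr3:124901419-124901668.
ITGA2: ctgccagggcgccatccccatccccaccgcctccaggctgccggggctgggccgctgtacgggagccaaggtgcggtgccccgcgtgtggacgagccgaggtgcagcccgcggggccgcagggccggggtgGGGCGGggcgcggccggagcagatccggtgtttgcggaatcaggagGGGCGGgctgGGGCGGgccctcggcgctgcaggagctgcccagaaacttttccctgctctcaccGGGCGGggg
ITGA5: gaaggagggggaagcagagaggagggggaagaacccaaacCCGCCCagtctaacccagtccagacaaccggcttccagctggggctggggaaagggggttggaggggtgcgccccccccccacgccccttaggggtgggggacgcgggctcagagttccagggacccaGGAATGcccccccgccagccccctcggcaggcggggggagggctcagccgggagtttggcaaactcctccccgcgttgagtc
ITGB5: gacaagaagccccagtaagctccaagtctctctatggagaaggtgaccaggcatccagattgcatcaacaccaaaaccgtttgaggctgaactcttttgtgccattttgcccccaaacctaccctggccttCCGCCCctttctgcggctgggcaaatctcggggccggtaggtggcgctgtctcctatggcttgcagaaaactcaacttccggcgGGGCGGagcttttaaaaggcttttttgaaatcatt
ITGB5 has 3 windows in the table, and the one shown is at the end of its listed span, while ITGA2 and ITGA5 have 1 each. The windows of ITGA5 and ITGA2 lie partly inside the listed spans, which end at 54419460 and start at 52989326. Upstream here thus means before the RefSeq start and not outside the listed gene. In the windows shown ITGA2 held 4 SP1 motifs, ITGA5 held 1 SP1 and 1 TEAD motif, and ITGB5 held 2 SP1 motifs, and none of the members' 13 windows held the AP-1 letters. The GC content was 76.4% upstream of ITGA2, 70.0% upstream of ITGA5 and 52.8% upstream of ITGB5, with a median of 58.0% over all 35116 windows of the RefSeq table. The other ITGB5 windows differed from the one shown, with a GC content of 75.2% and 3 SP1 motifs at chr3:124887366-124887615, and 56.4% and 0 motifs at chr3:124887685-124887934. The SP1 letters were in 42.6% of all windows of this length, the TEAD letters in 11.9% and the AP-1 letters in 6.57%. RefSeq windows were found for 8 members, and ITGA3 and ITGB4 had no entry. The SP1 letters also occurred upstream of members that did not rise, with 3 matches in a window of ITGB1, 3 in a window of ITGA6 and 2 in that of ITGB8. None of the motifs was in the window of ITGB6, at a GC content of 30%, or in those of ITGAV, at 70.8% and 40.8%.

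ITGA6 and ITGB4, which form 1 receptor, moved together by a small amount. ITGA6, on chromosome 2 from 172427354 to 172506282, received 10388 and 11875 counts in the control libraries and 11573 and 10263 after knockdown. Its levels were 645 and 660 CPM in siControl and 620 and 624 CPM in siALKBH5. ITGB4, on chromosome 17 from 75721328 to 75757818, received 12435 and 13722 counts in the control libraries and 13782 and 12104 after knockdown. Its levels were 772 and 763 CPM in siControl and 738 and 736 CPM in siALKBH5, so the groups of both genes were separate. ITGA6 changed by -0.07 on the log2 scale (adjusted p = 0.013, standard error 0.02) and ITGB4 by -0.06 (adjusted p = 0.028, standard error 0.02, both by edgeR). The ratio of ITGA6 to ITGB4 per kb was 0.865 and 0.896 in siControl and 0.869 and 0.877 in siALKBH5, which overlapped.

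The calls of both genes were fragile. The log2 fold change of ITGA6 was -0.05 (adjusted p = 0.16 by edgeR) without siControl replicate 2 and -0.06 (adjusted p = 0.074 by edgeR) without siALKBH5 replicate 1. That of ITGB4 lay between -0.07 and -0.05 with each library left out and was called only without siControl replicate 2, with adjusted p-values of 0.19, 0.083 and 0.11 without siControl replicate 1, siALKBH5 replicate 1 and siALKBH5 replicate 2. By DESeq2 the adjusted p was 0.055 for ITGA6 and 0.091 for ITGB4, and by edgeR with no filter on low counts it was 0.082 for ITGB4. GALK1 overlaps the span of ITGB4 on the opposite strand and had 211 and 259 counts in the control libraries and 317 and 302 after knockdown, and the strand setting of the counting is not given in the sources used here.

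ITGAV, the alpha subunit shared by the vitronectin and latent TGF-beta receptors, was lower in siALKBH5. It lies on chromosome 2 from 186590065 to 186680901, with counts of 1639 and 1946 in the control libraries and 1758 and 1563 after knockdown. Its levels were 102 and 108 CPM in siControl and 94.12 and 94.98 CPM in siALKBH5, and the spread between the siControl libraries was nearly as large as the gap to siALKBH5. This amounted to -0.15 on the log2 scale (adjusted p = 0.0062 by edgeR, standard error 0.04). Without siControl replicate 2 it was -0.11 (adjusted p = 0.16 by edgeR), and by DESeq2 it was -0.15 with an adjusted p of 0.063.

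ITGB8 and ITGB6, the subunits that direct ITGAV to latent TGF-beta, were not called. ITGB8, on chromosome 7 from 20330702 to 20415754, received 1065 and 1297 counts in the control libraries and 1161 and 1079 after knockdown, or 66.1 and 72.1 CPM against 62.2 and 65.6 CPM. The groups were separate by a narrow margin, and the log2 value was -0.12 (adjusted p = 0.093 by edgeR, standard error 0.05, 95% interval from -0.23 to -0.0061). It was called without siControl replicate 1, at -0.17 (adjusted p = 0.032 by edgeR), and with library size as the only scaling, at -0.14 (adjusted p = 0.046 by edgeR). It shrank to -0.05 (adjusted p = 0.64) without siControl replicate 2 and to -0.08 (adjusted p = 0.44, both by edgeR) without siALKBH5 replicate 1. AC004130.1, an antisense gene that overlaps ITGB8, had between 82 and 124 counts in the 4 libraries. ITGB6, on chromosome 2 from 160099666 to 160200313, received 763 and 901 counts in the control libraries and 945 and 796 after knockdown. Its levels were 47.4 and 50.1 CPM against 50.6 and 48.4 CPM, which overlapped, and the 95% interval of its log2 fold change ran from -0.10 to 0.15.

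ITGB1 and ITGA3 had the narrowest intervals among the members that were not called. ITGB1, the beta subunit that most keratinocyte integrins share, lies on the minus strand of chromosome 10 from 32900319 to 33005792. It had 4408 and 5008 counts in the control libraries and 5130 and 4622 after knockdown, or 274 and 278 CPM against 275 and 281 CPM. Its groups overlapped, with a log2 fold change of 0.0087 (-0.013 with library size as the only scaling) and a 95% interval from -0.05 to 0.07. ITGA3, the alpha subunit of the laminin receptor of migrating keratinocytes, lies on chromosome 17 from 50055968 to 50090481. It had 6977 and 7878 counts in the control libraries and 8116 and 6969 after knockdown, or 433 and 438 CPM against 435 and 423 CPM. Its groups overlapped too, with a 95% interval from -0.07 to 0.03 on the log2 scale. Changes of the size seen in ITGA2 or ITGB5 lay outside both intervals.

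The unequal changes shifted the proportions among the mRNAs of subunits that can share 1 partner. All 5 alpha subunits can pair with ITGB1, but ITGA6 also pairs with ITGB4, and ITGAV with ITGB5, ITGB6 and ITGB8. Competition for ITGB1 was therefore not measured by these shares. ITGA2 made up 11.3% and 11.1% of the summed level of the 5 alpha subunits per kb in siControl and 14.97% and 15.29% in siALKBH5. The share of ITGA6 was 56.1% and 56.2% in siControl and 53.1% and 53.3% in siALKBH5, and that of ITGA5 went from 0.461% and 0.469% to 0.696% and 0.815%. The share of ITGA3 was 25.1% and 24.9% in siControl against 24.8% and 24.1% in siALKBH5. The ratio of ITGA2 to ITGB1 was 0.434 ± 0.00375 in siControl and 0.586 ± 0.000494 in siALKBH5 (SD, n = 2 each).

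Among the 3 beta subunits that pair with ITGAV alone, ITGB5 held 41.0% and 39.7% in siControl and 43.4% and 45.9% in siALKBH5. ITGB8 held 17.8% and 18.6% in siControl and 15.57% and 15.97% in siALKBH5. The ratio of ITGB5 to ITGAV was 0.813 and 0.772 in siControl and 0.998 and 1.08 in siALKBH5, a gap wider than the spread within either group. The ratio of ITGB6 to ITGAV was 0.816 and 0.811 against 0.942 and 0.892, and that of ITGB8 to ITGAV overlapped, at 0.352 and 0.361 against 0.358 and 0.374. These are ratios of mRNA and not of receptors. No exact permutation test of a ratio can fall below a two-sided p of 0.33 with 2 libraries against 2, so none was run.

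**Figure D3:**
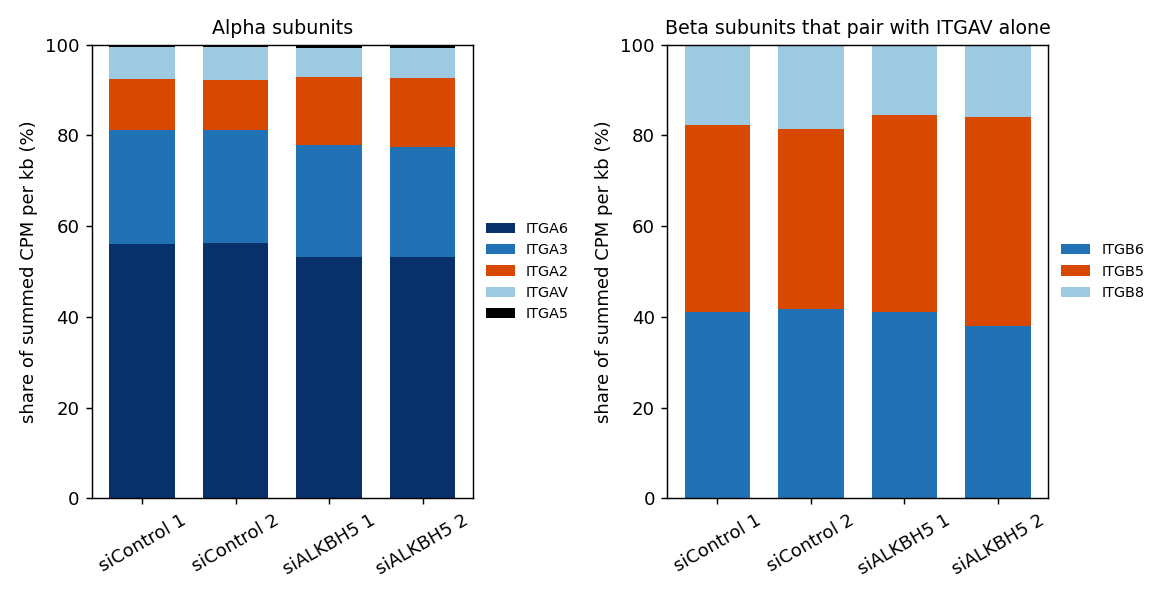
Stacked bars give, for each library, the share in percent of the summed level (CPM per kb) held by each of the 5 alpha subunits (left) and by each of the 3 beta subunits that pair with ITGAV alone (right). The ITGA2 band is wider in both siALKBH5 libraries (14.97% and 15.29%) than in siControl (11.3% and 11.1%), and the ITGB5 band widens from 41.0% and 39.7% to 43.4% and 45.9%.

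The 16 other integrin subunits of the human genome were low or silent in these cells. Of these, 6 had enough counts to be tested, 3 were higher in siALKBH5 and 0 were lower, against 19.3% and 17.3% of all genes tested. Of the 6, ITGA1 and ITGA9 passed the filter on low counts only through siALKBH5, which leaves 4 genes with 2 higher. ITGA1, a collagen receptor subunit, had 12 and 8 counts in the control libraries and 35 and 49 after knockdown (log2 fold change 2.02, adjusted p = 0.00014 by edgeR, standard error 0.40). ITGA4, a subunit best known from leukocytes, had 60 and 58 counts against 113 and 95 (log2 fold change 0.77, adjusted p = 0.0016 by edgeR, standard error 0.19). ITGA7, a laminin receptor subunit of muscle, had 19 and 27 counts against 60 and 36 (log2 fold change 1.01, adjusted p = 0.011 from edgeR). Its call was lost without siControl replicate 1 (0.86, adjusted p = 0.067 by edgeR), without siALKBH5 replicate 1 (0.70, adjusted p = 0.24 by edgeR) and by DESeq2 (1.02, adjusted p = 0.073). ITGAE had between 248 and 318 counts, ITGB7 between 53 and 88 and ITGA9 between 8 and 17, and these 3 were not called. Per kb of gene length, ITGAE stood at 2.23 CPM in siControl and 2.61 in siALKBH5. It thus lay above the lowest member, ITGA5, at 0.827 and 1.35. ITGA8, ITGAD, ITGAL and ITGB3 had 0 counts in all 4 libraries, and the other 6 had at most 8 counts in any library.

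Of 20 genes of matrix ligands that integrins bind, 16 were tested, 8 were higher and 1 was lower, against 19.3% and 17.3% of all genes tested, with a median log2 fold change of 0.25 against -0.0081 over all genes tested. TNC, which encodes tenascin C, a matrix protein of wounds, had 7 and 16 counts in the control libraries and 68 and 42 after knockdown (log2 fold change 2.20, adjusted p = 9.4e-06 by edgeR, standard error 0.36). It passed the filter only through siALKBH5, and its log2 value was 2.82 without siControl replicate 2. Of the 14 ligand genes that reached the minimum of the filter in both groups, 7 were higher and 1 was lower. COL4A1, a collagen chain of the basement membrane, had 142 and 206 counts against 346 and 310 (log2 fold change 0.88, adjusted p = 4.8e-07 from edgeR). COL4A2, another collagen IV gene of this list, was named after its values were seen. It had 621 and 708 counts against 721 and 616 and was not called (log2 fold change -0.03, adjusted p = 0.74 from edgeR). FN1, which encodes fibronectin, the ligand of the ITGA5 receptor, had 112 and 152 counts against 247 and 199 (log2 fold change 0.71, adjusted p = 7.8e-05 by edgeR, standard error 0.14). The lower gene was LAMA5, a laminin alpha chain, with 18526 and 20583 counts in the control libraries and 19527 and 16845 after knockdown (log2 fold change -0.15, adjusted p = 1.7e-07 by edgeR, standard error 0.02). LAMA3 and LAMB3, laminin chains of the epidermal basement membrane, were singled out after their values were seen. LAMA3 was higher (log2 fold change 0.14, adjusted p = 0.00051 from edgeR), and LAMB3 had a log2 fold change of -0.03 (adjusted p = 0.28 from edgeR), with -0.051 (adjusted p = 0.041 by edgeR) where library size was the only scaling. VTN, the gene of vitronectin, had 0 counts in the control libraries and 2 and 5 after knockdown.

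Of the 4 partners of ITGA6 and ITGB4 in the hemidesmosome, 1 rose, 1 fell and 2 were not called, against 19.3% higher and 17.3% lower over all genes tested. DST, the gene of a plakin that links the hemidesmosome to keratin, rose by 0.19 on the log2 scale (adjusted p = 0.00020 by edgeR, standard error 0.04). CD151, a tetraspanin that binds laminin-binding integrins, fell by 0.27 on the log2 scale from 3468 and 3642 counts in siControl to 3223 and 2859 in siALKBH5 (adjusted p = 1.2e-07 by edgeR, standard error 0.03). PLEC and COL17A1 had log2 fold changes of 0.03 and 0.02 (adjusted p = 0.31 and 0.57 from edgeR). Of the 7 genes of latent TGF-beta, the cargo of the ITGB6 and ITGB8 receptors, 6 were tested and 1 was higher, against 19.3% of all genes tested. This was LRRC32, a membrane anchor of latent TGF-beta, with 0 and 2 counts in the control libraries and 30 and 28 after knockdown (adjusted p = 2.1e-06 from edgeR), which was named after its values were seen. LRRC32 and LTBP1 passed the filter only through siALKBH5, which leaves 4 genes with 0 higher and 0 lower. TGFB1 had 632 and 664 counts against 787 and 670 (log2 fold change 0.12, adjusted p = 0.16 from edgeR).

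Inside the cell, integrins are switched on by talin and kindlin and linked to actin through the adhesion plaque. Of 26 genes of this list, 22 were tested, 8 were higher and 3 were lower, against 19.3% and 17.3% of all genes tested, with a median log2 fold change of 0.07. The highest were TNS1 at 0.52 (adjusted p = 0.0041), ACTN1 at 0.33 (adjusted p = 2.5e-09) and TNS4 at 0.31 (adjusted p = 6.7e-11, all from edgeR), which encode tensins and an actinin of the plaque. The lower genes were RAP1B at -0.23 (adjusted p = 0.00069), RAP1A at -0.17 (adjusted p = 0.0095) and ZYX at -0.13 (adjusted p = 0.0078, all from edgeR), 2 small GTPases that promote integrin activation and the plaque protein zyxin. The call of TNS1 was lost without siControl replicate 2 (0.39, adjusted p = 0.079 by edgeR). RAP1A was not called without siControl replicate 1 (-0.12, adjusted p = 0.18) or siALKBH5 replicate 1 (-0.16, adjusted p = 0.052, both by edgeR), and by DESeq2 its adjusted p was 0.079. ZYX was not called without the same libraries (-0.099 and -0.10, adjusted p = 0.13 and 0.12 by edgeR), and by DESeq2 its adjusted p was 0.067. Of 6 integrin inactivators, 5 were tested, 2 rose and 0 fell, against the same shares. FLNA, which encodes filamin A, an actin crosslinker that competes with talin for beta tails, had 4835 and 5509 counts in the control libraries and 10360 and 9063 after knockdown. Its level rose from 303 CPM to 553 CPM (log2 fold change 0.87, adjusted p = 6.8e-24 by edgeR, standard error 0.03), and it stayed called with every setting tried.

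Of 17 kinases and adaptors downstream of integrins, 16 were tested, 6 were higher and 5 were lower, against 19.3% and 17.3% of all genes tested, with a median log2 fold change of 0.0066. ARHGEF6, an exchange factor for Rac, had 38 and 26 counts in the control libraries and 100 and 81 after knockdown (log2 fold change 1.45, adjusted p = 1.4e-05 by edgeR, standard error 0.24). GIT2 and ELMO2 were higher by 0.36 and 0.24 on the log2 scale (adjusted p = 0.0031 and 0.0059 from edgeR). NEDD9, YES1 and CRK were lower, at -0.28, -0.22 and -0.18 (adjusted p = 0.0040, 0.0022 and 0.0011 from edgeR). Without siControl replicate 1, the changes of ELMO2 (0.17, adjusted p = 0.13), YES1 (-0.14, adjusted p = 0.11) and CRK (-0.12, adjusted p = 0.063) were not called by edgeR. That of NEDD9 was not called without siALKBH5 replicate 2 (-0.18, adjusted p = 0.13 by edgeR).

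Of the 11 membrane partners of integrins, all were tested, 5 were higher and 4 were lower, against 19.3% and 17.3% of all genes tested. TSPAN4, a tetraspanin, fell by 0.81 on the log2 scale (adjusted p = 0.00057 by edgeR, standard error 0.18), and CD82 and CAV1 fell by 0.17 and 0.12 (adjusted p = 0.00051 and 0.00019 from edgeR). CD81, SDC4 and BSG rose by 0.18, 0.16 and 0.14 on the log2 scale (adjusted p = 0.0015, 2.1e-06 and 6.2e-06 from edgeR). Of the 17 genes of integrin uptake and recycling, 16 were tested, 6 were higher and 3 were lower, against the same shares. DNM2 (dynamin), MYO10 (a filopodial myosin) and CLTC (clathrin heavy chain) rose by 0.29, 0.24 and 0.21 on the log2 scale (adjusted p = 5.3e-09, 0.00028 and 6.8e-08 from edgeR). SWAP70, RAB21 and RAB11FIP1 fell by 0.29, 0.28 and 0.18 (adjusted p = 3.2e-07, 0.0021 and 0.030 from edgeR). RAB21, a GTPase that binds integrin alpha tails, was not called without siALKBH5 replicate 2 (-0.21, adjusted p = 0.053 by edgeR). RAB11FIP1 was called only without siControl replicate 2 among the 4 fits that leave out a library, and by DESeq2 its adjusted p was 0.15, and 0.056 by edgeR with no filter on low counts. Without siControl replicate 1, siALKBH5 replicate 1 and siALKBH5 replicate 2, its log2 fold change was -0.13, -0.19 and -0.17 (adjusted p = 0.26, 0.079 and 0.11 by edgeR).

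**Figure D4:**
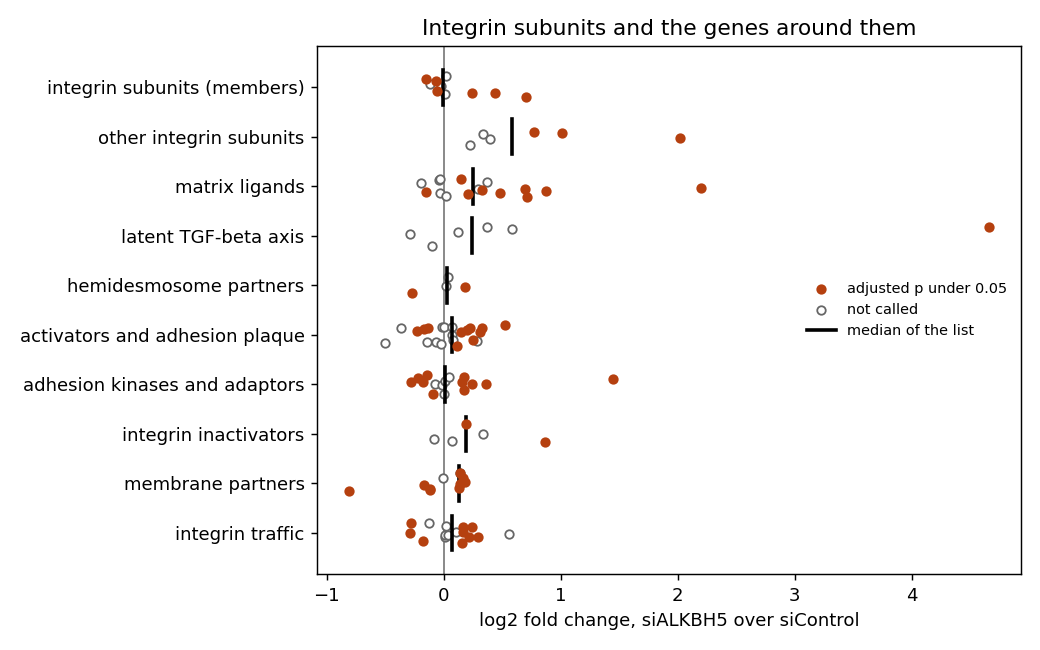
Log2 fold change, siALKBH5 over siControl, of each tested gene in the list of members and in 9 lists of related genes. Filled points have an adjusted p under 0.05 and bars mark list medians. The members' median is -0.0062, and that of the matrix ligands is 0.25, while the point farthest to the right is LRRC32, whose place rests on 0 and 2 control counts.

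The sequences of the members' mRNAs were compared with those of the siRNAs and of the commonest m6A consensus. The guide strands of both ALKBH5 siRNAs of the study are shown 5′ to 3′ with the seed, bases 2 to 8, in capitals, since a guide can lower other mRNAs whose 3′ ends pair with its seed.
ALKBH5-si1 antisense: uCGCCGAAgaaguacuugu
ALKBH5-si2 antisense: uAGUCGUUgaugacggcgc
Among the 3′UTRs of the longest coding transcripts, the site TTCGGCG of ALKBH5-si1 was in 0 of the 10 members and the site AACGACT of ALKBH5-si2 in 1, ITGB8. Over all genes tested with a 3′UTR, 0.436% held the former and 1.54% the latter. Outside the 3′UTR, the transcripts of ITGA3 and ITGAV each held 1 site of ALKBH5-si1. The share of all genes with a site there was not computed, and the part of such sites in the changes was not tested. The ITGB8 site lies at chr7:20414703-20414709 on the plus strand, at base 4706 of a 3′UTR of 5757 bases, and reads with 10 bases on each side, the site in capitals:
ITGB8: aagcttatgtAACGACTgttataaaac
This is a match of letters only, in a member whose change (log2 fold change -0.12) was not called.

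ALKBH5 removes m6A, which is often placed at the letters GGACT in mRNA. In the longest coding transcripts of the members these letters occurred between 0.343 (ITGB8) and 2.06 (ITGB5) times per kb, against a median of 0.933 per kb over 12486 genes. Of the members that rose, ITGA2 had 3 such sites (0.381 per kb), ITGA5 had 7 (1.58 per kb) and ITGB5 had 9 (2.06 per kb). Of those that fell, ITGA6 had 3 (0.534 per kb), ITGAV had 6 (0.853 per kb) and ITGB4 had 11 (1.86 per kb). Both sets thus held members on either side of the median. Whether these sites are methylated in HaCaT cells was not analysed here.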

How the data were processed

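Poly-A RNA of HaCaT cells was sequenced, and the authors deposited 2 tables, each with the raw counts per gene of 1 siControl and 1 siALKBH5 library. The tables also hold FPKM, which the authors deposited per table and which were not used, and the authors' own fold changes and p-values between single libraries, which were not used either. The submitters' processing notes name CASAVA, HISAT2 2.0.5, featureCounts 1.5.0-p3, DESeq2 1.20.0 and hg38, and identifiers were matched to GENCODE 29.

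Counts entered the quasi-likelihood test of edgeR 4.0.16 (R 4.3.3) after filterByExpr and TMM scaling, with no covariates, and p-values were adjusted by Benjamini-Hochberg over all 15075 genes tested. Alternatives were DESeq2 1.42.0, which the study's methods name, its size factors in edgeR, library size as the only scaling, genes kept without a filter, genes kept at 10 or more counts on average, the replicate block, and leaving out each library. Levels are TMM-normalized CPM, divided by the listed gene length in kb where genes were compared. The members and lists were chosen with earlier results of these data known. The second call rule, a change of 1 log2 unit, is that of the study's methods. Genes were named from each list if called, where the CPM averaged 1 or more and the groups did not overlap, at most the 3 lower and 3 higher with the largest change. The libraries of a group differed by more than sampling noise (chi-square per degree of freedom 1.74 and 1.85), against 18.2 to 20.3 between groups. In simulated data with 200 genes changed 2-fold, edgeR called 183 on 15031 genes with 5 false calls, and DESeq2 called 154 on 26581 genes with 0. Some list genes are not reported here.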

Additional observations from a re-analysis of the deposited data

How the results depend on the processing

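The members called higher numbered 3 in each of the 10 alternative fits, and those called with the study's fold threshold numbered 0 in each. The members called lower numbered 3, but 0 with DESeq2, 2 with no filter on low counts (ITGB4 lost), 4 with library size only (ITGB8 gained), and from 1 to 3 with each library left out in turn, with 1 without siControl replicate 2 or siALKBH5 replicate 1. Fits that leave out a library use fewer samples, and for DESeq2 the cause was not tested. With DESeq2, 1444 genes were lower over all genes against 2610, and with the fold threshold 59 were lower and 130 higher against 196 and 244. With the replicate block, 3 members were higher and 3 lower, with 2831 genes lower and 3091 higher. The block changed no call of a member. With the block, the adjusted p by edgeR was 0.00053 for ITGA6, 0.0018 for ITGAV and 0.0023 for ITGB4. The correlation of same-numbered libraries' deviations from their group means was 0.034 over 15075 genes. Same-numbered libraries came in 1 deposited table, and with 2 libraries per group this correlation cannot decide whether they were paired. The list genes called, 17 lower and 40 higher, stayed within 12 to 20 and 37 to 41. ITGB1, which was called by no fit, had a log2 fold change of -0.013 with library size only and -0.00055 and -0.0047 without siControl replicate 1 and siALKBH5 replicate 2, against 0.0087. With 99 to 182 counts per library, ITGA5 had the least precise value among the members. DESeq2 gave LRRC32 no adjusted p.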
